A study of Mus musculus with 6 samples.

Results

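The integrin and cadherin genes form the surface machinery by which the cells of the gut wall hold on to matrix and to each other. Members were found by gene symbol (Itga and Itgb followed by a number or letters, and Cdh followed by a number), leaving out Itgam, Itgb2, Cdh1 and Cdh5, and each was read from its brightest probe set. This gave 34 genes, 19 integrins and 15 cadherins, of 12393 measured. The reference gene table holds 45 protein-coding genes of these names, and the other 11, among them Itga1, Itga11, Itgb8 and Cdh19, were not measured here.

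RNA came from C57BL/6 mouse embryos at embryonic day 13.5 and was hybridised to 6 Affymetrix 3′ arrays, 2 biological replicates in each of 3 groups. The stomach and intestine groups were controls that the labels call wild type, and their genotype is given as Rosa26+/Barx1 or Bapx1+/Cre, so each control embryo carried the Cre allele or the silent Barx1 allele alone; which of them is not stated for a given array. The third group, called Barx1 intestine here, was intestine of the genotype Rosa26+/Barx1;Bapx1+/Cre, in which the Cre under control of Bapx1 (Nkx3-2), a homeobox gene of the gut mesenchyme, switches on Barx1. All tissues were dissociated with collagenase-dispase and trypsin, which depletes the endoderm, and the cells were cultured for 3 days with 20% serum, so every value is that of cultured mixed cells. Whether an array held 1 embryo or a pool is not stated, and the p-values measure the spread between these samples.

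Integrins are pairs of an alpha and a beta chain that bind matrix proteins such as laminin, collagen and fibronectin outside the cell and link to the actin skeleton inside it through talin and vinculin. Classical cadherins bind the same or related cadherins on the neighbouring cell and hold catenins on their inner side. In developing gut mesenchyme both families take part in layering the wall and in anchoring smooth muscle to its matrix. BARX1, a homeodomain protein, regulates transcription in the mesenchyme of the stomach, and the comparisons ask which adhesion genes separate stomach from intestine and which change when BARX1 is expressed in intestine.

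Values are log2 expression levels, on which a difference of 1 is a doubling. The array medians lay between 6.93 and 6.98 and the lower quartiles between 4.72 and 4.76; a level at or below that quartile was not shown to be above background. Barx1 itself stood at 9.82 and 9.79 on the stomach arrays, at 5.13 and 4.93 on those of intestine and at 8.66 and 8.79 on those of Barx1 intestine. The mesenchyme list (such as Col1a2 and Pdgfra) averaged 9.74 to 10.6 and the smooth muscle list 10.1 to 10.4 over the arrays. Markers of other cells were also read. Cdh1, the epithelial cadherin left out of the members, read 7.32 to 10.47 over the 6 arrays and was highest on intestine replicate 1. Itgb2, the leukocyte beta chain, read 5.66 to 7.99 and was highest on intestine replicate 2. Cdh5, the endothelial cadherin, lay below the lower quartile on every array (4.16 to 4.60). In bulk cultures, fewer cells of a type and less RNA per cell cannot be told apart.

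**Figure D1:**
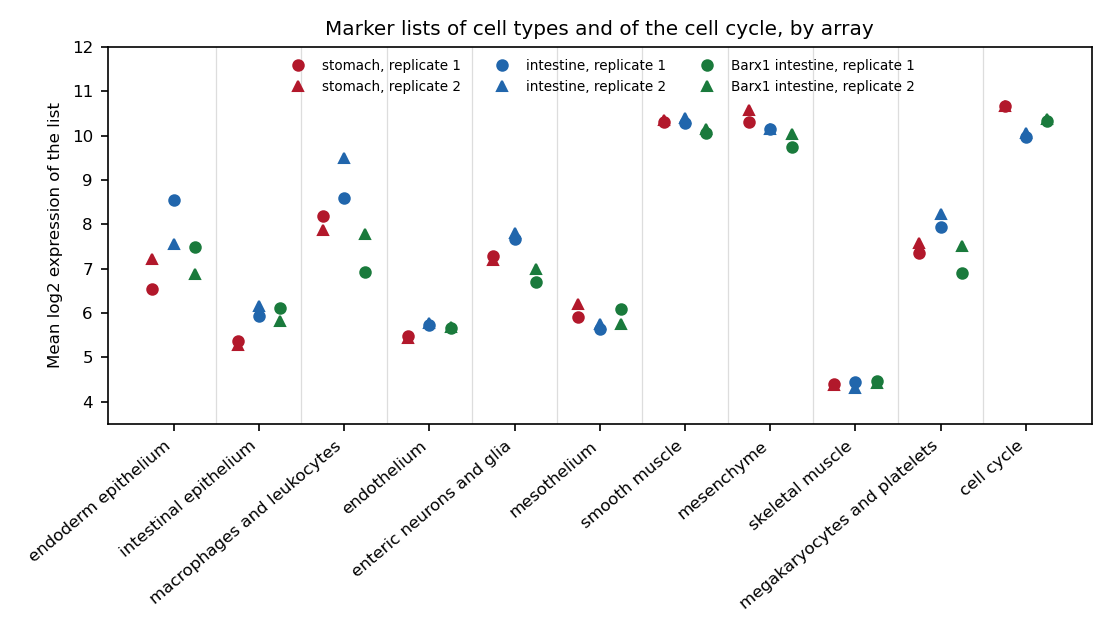
Mean log2 expression (vertical axis) of 11 marker lists (horizontal axis) on each of the 6 arrays, coloured by group, with a circle for replicate 1 and a triangle for replicate 2. The endoderm epithelium list is highest on intestine replicate 1 (8.54) and the macrophage and leukocyte list on intestine replicate 2 (9.49), while the smooth muscle list lies between 10.1 and 10.4. Single smooth muscle genes differed in both directions, such as Myocd (0.90) and Ppp1r14a (-1.13) for stomach minus intestine.

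Of the 34 members, 26 lay above the lower quartile on all 6 arrays, 5 lay below it on all 6 (Cdh8, Cdh9, Cdh17, Cdh23 and Itgae) and 3 lay on both sides of it (Itga4, Itgax and Itgb6). Of all 12393 genes, 9384 lay above it on all 6 arrays. The 9 members that passed the test in at least 1 comparison were Cdh3, Cdh4, Cdh6, Cdh10, Cdh11, Itga3, Itga6, Itga9 and Itgb5, and all of them were above the quartile on all 6 arrays. They passed 15 times in all, where passing means an adjusted p under 0.05 in limma over all genes. The other 25 members passed in no comparison. The share of all genes that passed in at least 1 comparison was not counted. No member differed by 1 or more on the log2 scale between any pair of groups. Few genes did: of all 12393, 355 between stomach and intestine. Barx1 intestine had 276 against intestine and 182 against stomach.

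**Figure D2:**
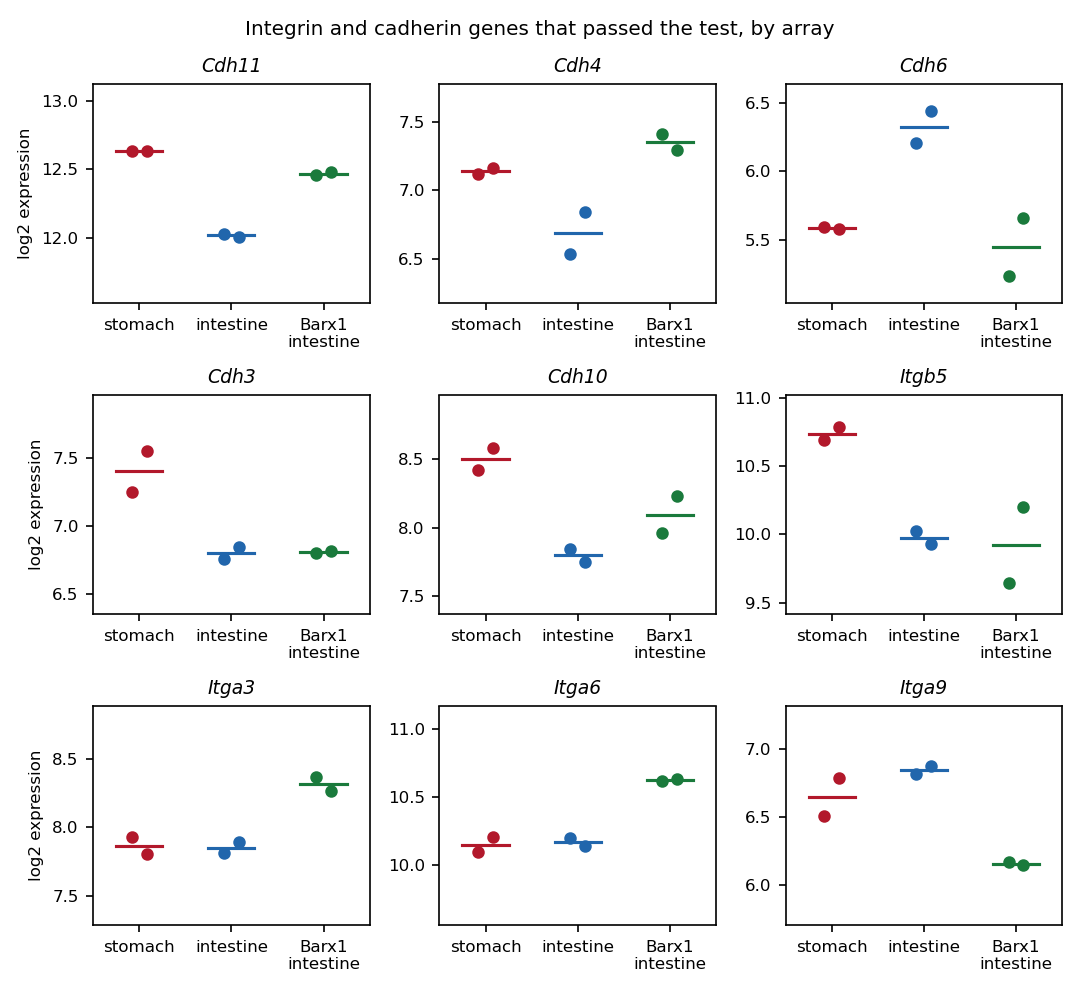
Log2 expression (vertical axis, each panel spanning 1.6 units) of the 9 integrin and cadherin genes that passed the test in at least 1 comparison, for the 3 groups (horizontal axis); points are single arrays and bars the mean of 2. Cdh11 is lowest on the intestine arrays (12.03 and 12.01), while Itga6 stands apart only in Barx1 intestine (10.61 and 10.63).

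Between stomach and intestine the cadherins carried most of the calls. In stomach 5 members were higher (Cdh3, Cdh4, Cdh10, Cdh11 and Itgb5) and 1 was lower (Cdh6). That is 6 of 34 members (17.6%), beside 16.9% of all genes called in this comparison (8.86% higher and 8.09% lower), so the members' share was near the background. By family, 5 of 15 cadherins and 1 of 19 integrins passed. The median difference was 0.0081 over the members and 0.019 over all genes. The arrays of both groups did not overlap for 22 of the 34 members (64.7%, 11 higher and 11 lower), beside 64.1% of all genes (34.5% higher and 29.6% lower).

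Cdh11 encodes the type II cadherin of mesenchymal and osteoblast-lineage cells, often called OB-cadherin. The stomach arrays gave 12.64 and 12.63, the intestine arrays 12.03 and 12.01. Both stomach arrays were above both intestine arrays, and the difference was 0.62 (SE 0.05, adjusted p = 0.00413 by limma). Its stomach excess was the 1 call of the 15 that held in all 6 fits without 1 array, with an adjusted p of 0.0117 to 0.0460. Where such a fit leaves a group with 1 array, that array is assumed to vary like those of the other groups.

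Cdh10, a type II cadherin best known from the nervous system, stood at 8.42 and 8.59 in stomach, against 7.85 and 7.75 in intestine. The difference was 0.71 (SE 0.11, adjusted p = 0.0150 by limma), and no arrays of these groups overlapped. Cdh3, the placental or P-cadherin of epithelia and some mesenchyme, read 7.25 and 7.55 in stomach against 6.76 and 6.85 in intestine. It was higher in stomach by 0.60 (SE 0.11, adjusted p = 0.0207 by limma). The epithelial Cdh1 differed by -1.79 without passing (adjusted p = 0.127 by limma). The endoderm epithelium list had 0 of 18 members higher and 2 lower in stomach, beside 8.86% and 8.09% of all genes.

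Cdh4, the type I cadherin called R-cadherin, gave 7.12 and 7.17 in stomach, against 6.54 and 6.84 in intestine. Its difference of 0.46 (SE 0.11) passed narrowly (adjusted p = 0.0458 by limma). The call ended in a fit of these groups alone (adjusted p = 0.0734 by limma) and with the mean of its 2 probe sets (0.17, adjusted p = 0.303 by limma), the second of which lay below the quartile on all 6 arrays. Cdh6, a type II cadherin of kidney and neural crest, ran the other way. Its stomach arrays stood at 5.59 and 5.58 and its intestine arrays at 6.21 and 6.44, and the difference was -0.74 (SE 0.16, adjusted p = 0.0313 by limma), the lowest of any member.

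Itgb5 encodes the beta chain that pairs with alpha V to bind vitronectin. The stomach arrays stood at 10.69 and 10.79, above the 10.02 and 9.93 of intestine, and the difference of 0.76 (SE 0.18, adjusted p = 0.0416 by limma) was the highest of any member. The gene has 4 probe sets, all of them above the quartile on all 6 arrays, and they gave differences of 0.76, 0.71, 0.74 and 0.84, of which 2 passed in a fit over all probe sets.

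These calls rested on few arrays. Fewer members passed without any 1 stomach or intestine array, and a smaller share of all genes passed as well. In the 6 fits without 1 array the differences ran from 0.62 to 0.79 for Cdh10 and from 0.61 to 0.63 for Cdh11. The range was 0.45 to 0.75 for Cdh3 and 0.30 to 0.61 for Cdh4. For Cdh6 it was -0.85 to -0.62, and for Itgb5 0.71 to 0.81. Markers of dividing cells moved with this comparison, since 9 of 9 measured cell cycle genes were higher in stomach, with list means of 10.7 and 10.7 in stomach and 9.97 and 10.1 in intestine. Enteric neuron and glia genes had 1 of 11 higher and 3 lower in stomach, with list means of 7.28 and 7.19 against 7.68 and 7.80. Mesenchyme genes had 5 of 11 higher and 1 lower (list means of 10.3 and 10.6 against 10.2 and 10.2). Genes called lower in stomach were found in the lists of intestinal epithelium (0 of 12 genes higher and 5 lower), endothelium (1 of 14 higher and 5 lower) and leukocytes (0 of 18 higher and 1 lower, with list means of 8.19 and 7.88 against 8.60 and 9.49). Smooth muscle genes had 4 of 12 higher and 3 lower, and mesothelium genes 2 of 4 higher and 1 lower. All these counts stand beside 8.86% of all genes called higher and 8.09% lower, and the leukocyte count was near that share. Of the 14 endothelium genes 4 lay below the quartile on all arrays, among them the called Pecam1. The part of all these lists in the cadherin and Itgb5 differences was not tested.

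On their brightest probe sets the widely expressed chains did not pass between stomach and intestine. Itgb1, the beta chain shared by most matrix-binding integrins, gave 12.70 and 12.74 in stomach, against 12.74 and 12.63 in intestine (difference 0.04, SE 0.06, adjusted p = 0.735 by limma). Itgav, the alpha V chain, read 12.90 and 12.88 against 12.99 and 12.92 (difference -0.07, SE 0.06). Its second probe set, above the quartile on all 6 arrays, was lower in stomach (-0.47, adjusted p = 0.0156 by limma over all probe sets). The third, below the quartile on all arrays, gave -0.02. Itga5, the fibronectin receptor chain, read 8.44 and 8.58 against 8.57 and 8.47 (difference -0.01, SE 0.09). The direction of the Itgb1 and Itga5 differences turned in some of the other settings. Cdh2, the N-cadherin of mesenchyme and nerve, stood at 10.41 and 10.35 in stomach, below the 10.61 of each intestine array (difference -0.23, SE 0.08, adjusted p = 0.0993 by limma).

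**Figure D3:**
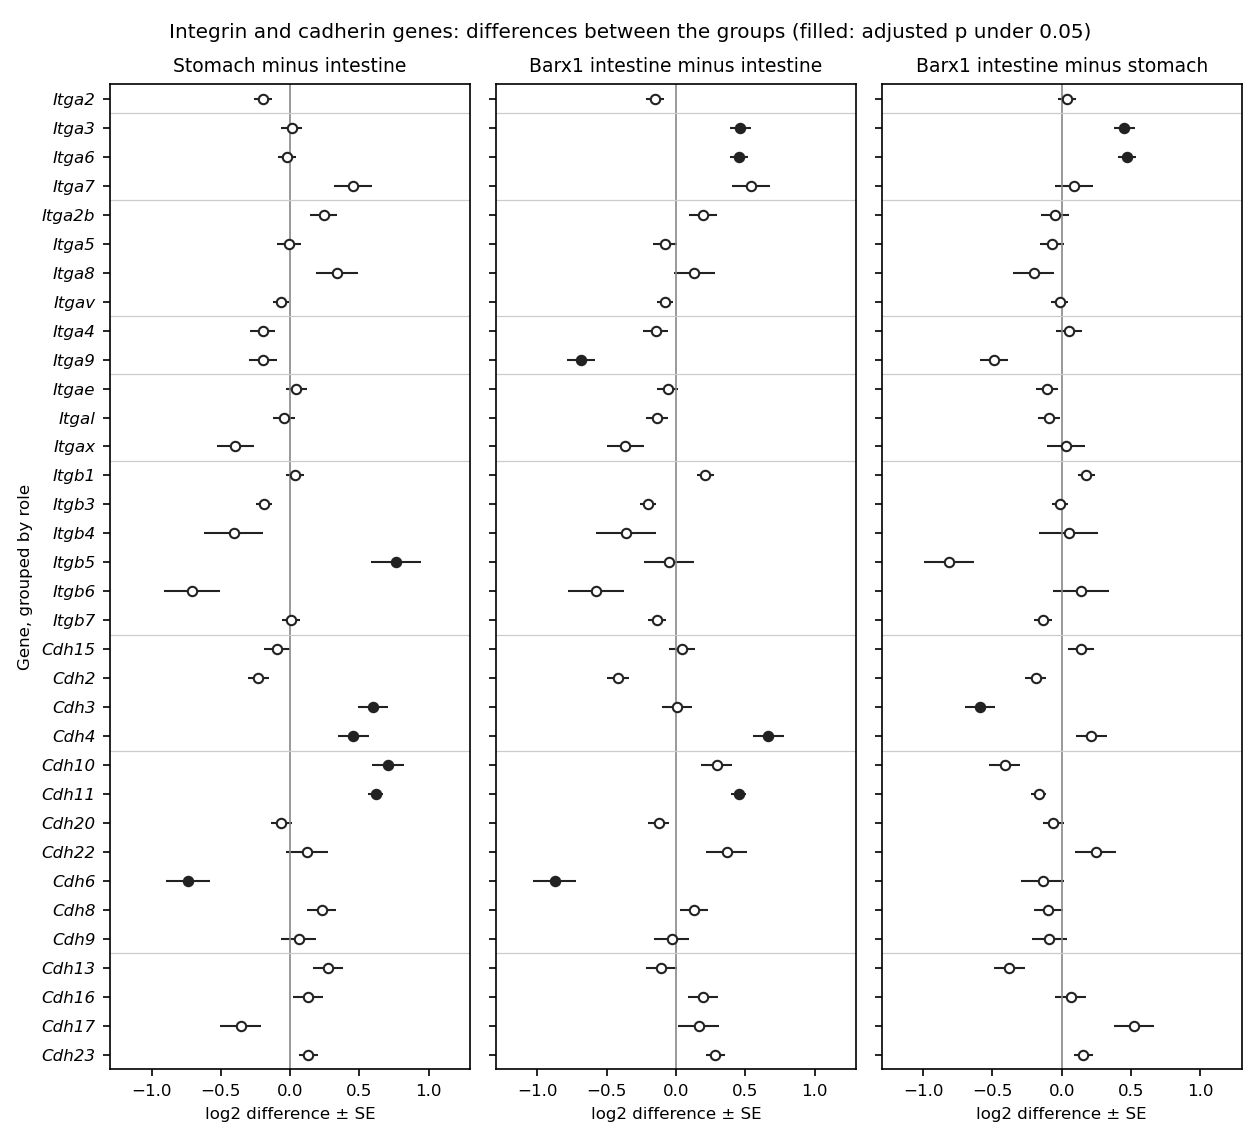
Log2 difference with its SE (horizontal axis) of the 34 integrin and cadherin genes (vertical axis, grouped by role) in the 3 comparisons; filled points passed at an adjusted p under 0.05. Itga3 and Itga6 lie at 0.47 and 0.45 for Barx1 intestine minus intestine and near 0 for stomach minus intestine, and Cdh6 lies at -0.74 and -0.88 in these comparisons.

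With BARX1 expressed in intestine, laminin-receptor alpha chains and 2 cadherins were higher and 1 cadherin and 1 further alpha chain were lower. Against control intestine, Itga3, Itga6, Cdh4 and Cdh11 rose and Cdh6 and Itga9 fell. This made 6 of 34 members (17.6%), beside 3.98% of all genes called (1.86% higher and 2.12% lower). By family, 3 of 19 integrins and 3 of 15 cadherins passed. The median was -0.040 over the members and 0.022 over all genes, and the arrays did not overlap for 25 of 34 members (73.5%, 10 higher and 15 lower), beside 52.4% of all genes (30.1% higher and 22.4% lower).

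The support for each of these 6 calls is narrow. Leaving out intestine replicate 1 kept 1 call (Cdh11, adjusted p = 0.0450) and leaving out intestine replicate 2 kept 1 (Cdh4, adjusted p = 0.0353). Leaving out either stomach array or either Barx1 intestine array left 0 by limma, with 13 of 34 members (38.2%) at an unadjusted p under 0.05 in each of those fits, beside 17.2% to 21.1% of all genes. The log2 differences of the 6 genes kept their sign in all of these fits. That was fixed in advance, since the compared arrays did not overlap for these genes. The fits without 1 stomach array are the same as a fit of the 2 compared groups alone. A smaller share of all genes passed in each of the fits without 1 array than with all 6 arrays.

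Itga6 encodes the alpha chain that binds laminin with beta 1 or, in epithelia, with beta 4. Its intestine arrays gave 10.20 and 10.14, its Barx1 intestine arrays 10.61 and 10.63. The stomach arrays, at 10.09 and 10.21, lay at the level of the intestine. The rise over intestine was 0.45 (SE 0.07, adjusted p = 0.0308 by limma), and its second probe set gave 0.38 without passing (adjusted p = 0.0606 by limma). Itga3, another laminin-binding alpha chain, gave 7.81 and 7.89 in intestine, then 8.37 and 8.27 for Barx1 intestine, with the stomach at 7.93 and 7.80. It rose by 0.47 (SE 0.08, adjusted p = 0.0412 by limma), its second probe set also passed (0.43, adjusted p = 0.0314 by limma), and the remaining one did not (0.09).

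Itga7, the laminin receptor chain of muscle, was the other measured alpha chain of this kind. Values of 5.45 and 5.31 in intestine stood against 5.73 and 6.11 in Barx1 intestine, a difference of 0.54 (SE 0.14) that did not pass (adjusted p = 0.0927 by limma). All Barx1 intestine arrays of the 3 genes lay above all intestine arrays. Their usual partner Itgb1 read 12.89 and 12.90 in Barx1 intestine against 12.74 and 12.63, a difference of 0.21 (SE 0.06, adjusted p = 0.121 by limma). Itgb4, the partner of alpha 6 in epithelia, read 5.13 and 5.21 against 5.83 and 5.23 (difference -0.36, SE 0.21, adjusted p = 0.374 by limma). Its highest value, on intestine replicate 1, fell on the array with the highest endoderm epithelium list (8.54, against 7.56 on intestine replicate 2).

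The laminin chains, which these receptors bind, were read as well. All 8 measured laminin genes had a negative difference between Barx1 intestine and intestine, from -1.25 to -0.085; 0 passed by limma and 5 had an unadjusted p under 0.05, beside 23.6% of all genes. Between stomach and intestine 5 of the 8 also had an unadjusted p under 0.05, beside 33.7% of all genes, with differences from -1.12 to 0.19. Lama4 passed there (-1.12, adjusted p = 0.0403 by limma), beside 16.9% of all genes called. Grouping the laminin genes apart from the other ligands was chosen after their values were seen.

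Itga9, whose product with beta 1 binds tenascin and other matrix proteins, fell. The intestine arrays gave 6.81 and 6.87, the Barx1 intestine arrays 6.17 and 6.15, with the stomach between them at 6.51 and 6.78. The difference from intestine was -0.68 (SE 0.10, adjusted p = 0.0323 by limma). Of its other 2 probe sets, 1 gave -0.79 without passing (adjusted p = 0.115 by limma) and the other -0.07. Itga4, its nearest relative among the alpha chains, read 4.94 and 5.10 against 4.83 and 4.92 and did not pass (difference -0.15, SE 0.09).

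Cdh11 rose from 12.03 and 12.01 in intestine to 12.46 and 12.48 in Barx1 intestine, by 0.45 (SE 0.05, adjusted p = 0.0220 by limma). Cdh4 read 7.41 and 7.30 in Barx1 intestine, above all intestine arrays (6.54 and 6.84), and rose by 0.67 (SE 0.11, adjusted p = 0.0417 by limma). Its dim second probe set gave -0.04, and the mean over both probe sets did not pass (0.31, adjusted p = 0.138 by limma). Cdh6 fell from 6.21 and 6.44 to 5.23 and 5.66, by 0.88 (SE 0.16, adjusted p = 0.0461 by limma). The groups do not overlap for any of these 3 genes.

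Cdh11, Cdh4 and Cdh6 were the 3 members called in both comparisons with intestine, in the same direction each time: 0.62 and 0.45 for Cdh11, 0.46 and 0.67 for Cdh4, and -0.74 and -0.88 for Cdh6, stomach first. Both comparisons share the intestine arrays, which by itself draws their differences in the same direction. The share of all genes called in both comparisons was not counted. Cdh10, called in stomach, read 7.96 and 8.23 in Barx1 intestine, between the other groups (difference from intestine 0.30, SE 0.11, adjusted p = 0.195 by limma). Cdh3 read 6.80 and 6.82 there, at the level of the intestine (difference 0.01, SE 0.11).

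Cdh2 lay just outside the threshold, at 10.28 and 10.10 in Barx1 intestine against 10.61 in both intestine arrays (difference -0.42, SE 0.08, adjusted p = 0.0502 by limma). Its second probe set passed (-0.51, adjusted p = 0.0244 by limma). The 3 probe sets of Itgav also differed. The brightest read -0.08 for Barx1 intestine minus intestine, while the second, also above the quartile on all 6 arrays, was lower in Barx1 intestine (-0.44, adjusted p = 0.0444 by limma) and in stomach (-0.47, adjusted p = 0.0156 by limma). The test over probe sets was added after the values were seen.

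**Figure D4:**
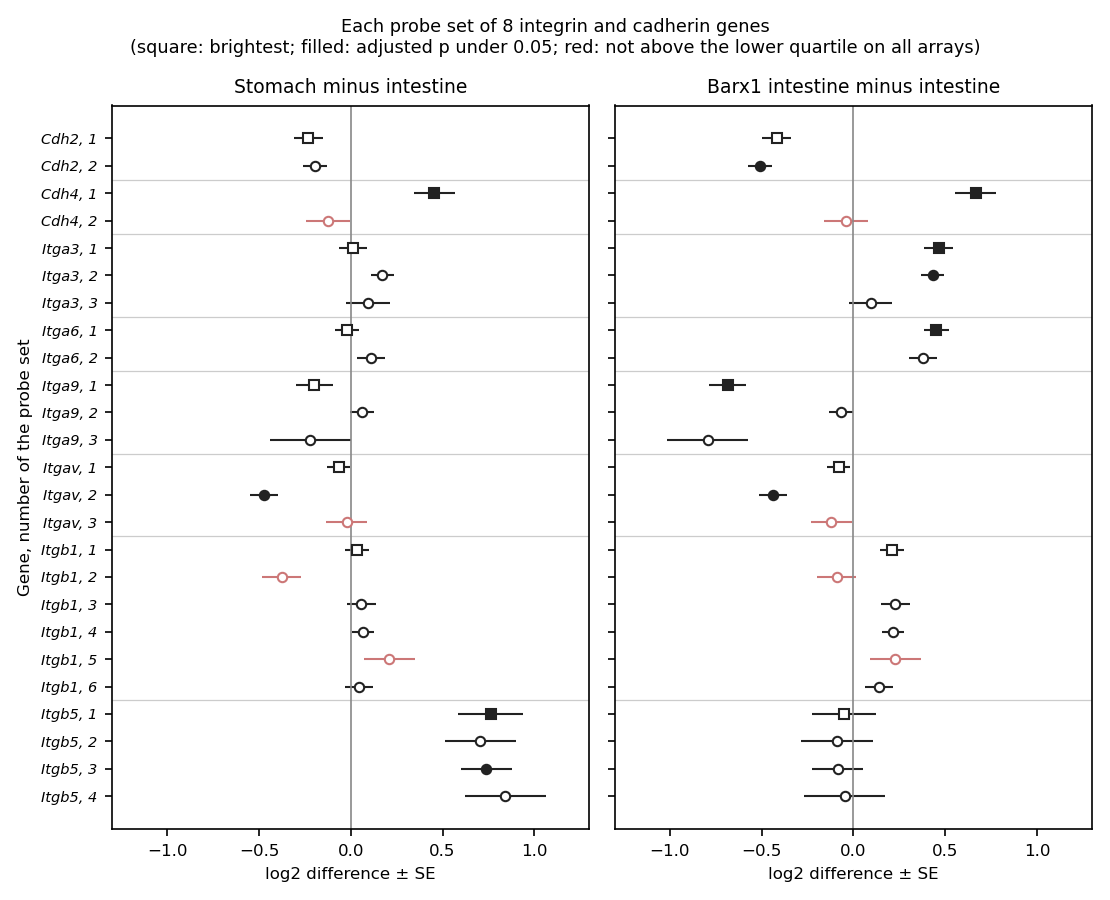
Log2 difference with its SE (horizontal axis) for each probe set (vertical axis) of 8 integrin and cadherin genes in the 2 comparisons with intestine; squares mark the brightest probe set, filled symbols passed at an adjusted p under 0.05, and red symbols were not above the lower quartile on all 6 arrays. The 4 probe sets of Itgb5 lie between 0.71 and 0.84 for stomach minus intestine and between -0.09 and -0.05 for Barx1 intestine minus intestine.

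Several markers of other cells moved with this comparison, in which 1.86% of all genes were called higher and 2.12% lower. Of 18 macrophage and leukocyte genes 7 were lower in Barx1 intestine and 0 higher, with list means of 6.92 and 7.77 against 8.60 and 9.49 in intestine, and none of the 18 lay below the quartile on every array. Of 11 enteric neuron and glia genes 4 were lower, with list means of 6.71 and 6.99 against 7.68 and 7.80; the defining gene Sox10 read 6.42 and 6.28 against 7.61 and 8.25. Their part in the lower Itga9, Cdh6 and Cdh2 values was not tested. The endoderm epithelium list, whose cells also carry Itga3 and Itga6, had 0 of 18 genes higher and 1 lower, with list means of 7.48 and 6.89 against 8.54 and 7.56. Of 9 cell cycle genes 4 were higher and 0 lower (list means of 10.3 and 10.4 against 9.97 and 10.1). The endothelium list had 0 of 14 higher and 2 lower (means of 5.65 and 5.68 against 5.72 and 5.78). Of these 14 genes 4 lay below the quartile on all arrays, among them Pecam1, 1 of the 2 called. Smooth muscle genes had 0 of 12 higher and 2 lower. What part these lists had in the integrin and cadherin values was not tested.

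Barx1 intestine was also compared with stomach directly. Itga6 was higher than in stomach by 0.47 (SE 0.07, adjusted p = 0.0255 by limma) and Itga3 by 0.45 (SE 0.08, adjusted p = 0.0373 by limma). The second probe set of Itga6 gave 0.27 without passing (adjusted p = 0.108 by limma), and those of Itga3 gave 0.26 (adjusted p = 0.0821 by limma) and a value at 0. With the mean of its probe sets Itga3 gave 0.24 and did not pass (adjusted p = 0.0784 by limma). Cdh3 was lower by 0.59 on the log2 scale (difference -0.59, SE 0.11, adjusted p = 0.0441 by limma). These were 3 of 34 members (8.82%), beside 5.20% of all genes called (2.56% higher and 2.64% lower). The arrays did not overlap for 19 members (55.9%, 8 higher and 11 lower), beside 58.0% of all genes (29.5% higher and 28.5% lower), and the median was -0.031 over the members and -0.00080 over all genes.

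Itgb5 had the lowest difference of any member here, -0.81 (SE 0.18), without passing (adjusted p = 0.0630 by limma). Of its other probe sets, 1 passed (-0.83, adjusted p = 0.0383 by limma over all probe sets). The remaining ones gave -0.79 and -0.89 without passing. On the brightest probe set its Barx1 intestine arrays read 9.65 and 10.20, the widest replicate gap of the 9 genes in that group. Both lay below the stomach arrays. The difference moved with the array kept: it was -0.54 without Barx1 intestine replicate 1 (adjusted p = 0.107 by limma) and -1.09 without replicate 2 (adjusted p = 0.0371 by limma), each with a single Barx1 intestine array. Itga9 differed by -0.49 (SE 0.10, adjusted p = 0.0573 by limma) and Cdh10 by -0.41 (SE 0.11, adjusted p = 0.0996 by limma). Cdh11, Cdh4 and Cdh6 differed from stomach by -0.17, 0.21 and -0.14, with SE of 0.05, 0.11 and 0.16, and none passed.

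Leaving out intestine replicate 1 or 2 kept the Itga3 and Itga6 calls and ended that of Cdh3. Without either stomach array, or without Barx1 intestine replicate 1, 0 members passed by limma. In these fits 7, 7 and 8 of 34 members (20.6%, 20.6% and 23.5%) had an unadjusted p under 0.05, beside 15.0%, 15.4% and 19.3% of all genes. Without Barx1 intestine replicate 2 the 1 call was Itgb5. Beside this comparison, mesenchyme genes had 1 of 11 higher and 5 lower in Barx1 intestine, with list means of 9.74 and 10.0 against 10.3 and 10.6, and 4 of 9 cell cycle genes were lower. Endothelium genes had 3 of 14 higher and 0 lower (list means of 5.65 and 5.68 against 5.47 and 5.44). The 3 were Cd34 (1.62), Kdr (1.28) and Emcn (0.56), while the list median was -0.012. Of the 14 genes 4 lay below the quartile on all arrays. Smooth muscle genes had 1 of 12 higher and 2 lower. Over all genes 2.56% were called higher and 2.64% lower. Intestinal epithelium genes had 2 of 12 higher and 0 lower, Apoa4 (1.81) and Fabp2 (1.72), with list means of 6.11 and 5.81 against 5.37 and 5.28. Their part in the Itga3, Itga6 and Cdh3 differences was not tested.

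Upstream sequence is shown for the 5 called members that the RefSeq promoter table holds, because BARX1 belongs to the homeodomain class, whose members commonly bind a TAAT core; Cdh3, Cdh4, Cdh11 and Itga6 are not in the table. Each line gives the 250 bases before the annotated start, 5′ to 3′ on the gene's strand, with TAAT on either strand (TAAT or ATTA) in capitals; for Itga3, which has 2 windows, the one farther upstream is shown.
Cdh10, GRCm38.p6, chr15:18820079-18820328, strand plus: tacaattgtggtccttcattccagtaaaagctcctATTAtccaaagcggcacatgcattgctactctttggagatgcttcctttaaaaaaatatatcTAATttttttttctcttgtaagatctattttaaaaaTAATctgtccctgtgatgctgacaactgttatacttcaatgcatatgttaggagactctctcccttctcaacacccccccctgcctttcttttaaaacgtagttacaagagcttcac
Itgb5, GRCm38.p6, chr16:33829415-33829664, strand plus: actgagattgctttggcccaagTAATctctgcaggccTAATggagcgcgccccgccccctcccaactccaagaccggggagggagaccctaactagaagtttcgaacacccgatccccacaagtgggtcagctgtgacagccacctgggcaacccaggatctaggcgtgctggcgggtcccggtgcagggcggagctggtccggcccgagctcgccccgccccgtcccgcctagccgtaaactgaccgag
Cdh6, GRCm38.p6, chr15:13173676-13173925, strand minus: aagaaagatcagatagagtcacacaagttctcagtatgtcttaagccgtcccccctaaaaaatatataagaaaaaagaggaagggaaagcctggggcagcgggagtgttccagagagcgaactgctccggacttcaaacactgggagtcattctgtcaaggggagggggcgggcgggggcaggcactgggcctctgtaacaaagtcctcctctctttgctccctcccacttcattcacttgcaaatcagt
Itga3, GRCm38.p6, chr11:95076715-95076964, strand minus: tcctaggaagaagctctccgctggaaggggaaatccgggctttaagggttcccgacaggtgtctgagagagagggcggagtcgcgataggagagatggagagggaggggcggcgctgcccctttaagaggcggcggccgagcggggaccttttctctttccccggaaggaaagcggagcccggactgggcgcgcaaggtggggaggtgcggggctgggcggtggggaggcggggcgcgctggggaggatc
Itga9, GRCm38.p6, chr9:118711442-118711691, strand plus: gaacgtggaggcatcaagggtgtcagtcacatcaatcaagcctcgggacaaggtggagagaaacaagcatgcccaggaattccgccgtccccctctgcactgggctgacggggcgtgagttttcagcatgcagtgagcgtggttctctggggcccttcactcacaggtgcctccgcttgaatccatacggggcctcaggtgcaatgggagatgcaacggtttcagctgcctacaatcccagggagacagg
The Cdh10 window held 3 matches and the Itgb5 window 2, and the windows of Cdh6, Itga9 and Itga3 (both) held 0. Over all members, 9 of 23 windows of 21 genes held the core, beside 54.9% of all 32851 windows of this length. The longer TAATTG, which contains the core, was found in 1 member window (Cdh20) and in 7.17% of all windows. Base composition differed between the windows, with 36.8% G and C in Cdh10, 65.2% in Itgb5, 51.2% in Cdh6, 67.6% in Itga3 and 58.4% in Itga9, beside a median of 52.4% over all windows. A match describes the letters only.

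Among the members that did not pass in any comparison, the remaining alpha chains of the fibronectin and vitronectin type had differences within 0.34 of 0. Itga8, a chain of mesenchyme and smooth muscle, gave 5.85 and 5.79 in stomach, then 5.32 and 5.66 for intestine, then 5.46 and 5.78 for Barx1 intestine (adjusted p from 0.184 to 0.650 by limma). Itga2b, the platelet chain, read 6.84 to 7.19 and its partner Itgb3 4.97 to 5.20. Itgb3 was lower in stomach and in Barx1 intestine than in intestine by 0.19 and 0.20 in log2 terms without passing (adjusted p = 0.0801 and 0.114 by limma).

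Chains known from epithelium and leukocytes passed in no comparison. Itgb6, an epithelial partner of alpha V, read 4.99 and 4.40 in intestine and 3.97 to 4.25 elsewhere, and only the 4.99 of intestine replicate 1 was above the quartile; its difference of -0.71 in stomach (SE 0.20, adjusted p = 0.0671 by limma) therefore starts from a level not shown to be above background. Itgax, a chain of dendritic cells and macrophages, read 5.02 on intestine replicate 2, where the leukocyte list was highest, and 4.36 to 4.68 on the other arrays. Itgal lay above the quartile on all 6 arrays, Itgae read 3.90 to 4.12, Itgb7 5.31 to 5.52 and Itga2, the measured collagen-binding chain, 5.37 to 5.65. The excluded Itgam was called lower than in intestine in stomach (adjusted p = 0.0398) and in Barx1 intestine (adjusted p = 0.0323) by limma. It read 5.34 and 5.83 in intestine, while 1 of the stomach arrays (4.48) and both Barx1 intestine arrays (3.98 and 4.29) lay below the quartile, so the size of its differences is not given.

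The other cadherins passed in no comparison either. Cdh13, which lacks a cytoplasmic part, gave 5.54 and 5.24 in stomach, then 5.17 and 5.06 for intestine, then 5.03 and 4.99 for Barx1 intestine, and the stomach arrays were highest. Cdh17, the cadherin of intestinal epithelium, lay below the quartile on all arrays, at 4.01 and 4.11 in stomach and 4.25 to 4.73 in the other groups. Cdh15, the cadherin of skeletal muscle, read 5.93 to 6.21, while the skeletal muscle list averaged 4.32 to 4.47. Cdh22 read 4.99 to 5.54, Cdh20 5.43 to 5.66 and Cdh16 4.97 to 5.37. Cdh23, a cadherin of sensory hair cells, read 4.28 to 4.64, and Cdh8 and Cdh9 read 3.28 to 3.67 and 3.63 to 3.95.

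The genes around these receptors were read from related lists. For comparison, 8.86% of all genes were called higher and 8.09% lower in stomach than in intestine. For Barx1 intestine these shares were 1.86% and 2.12% against intestine, and 2.56% and 2.64% against stomach. Of 34 integrin ligand genes 7 were higher and 4 lower in stomach than in intestine, with Col1a2 (1.98), Fbln5 (1.55), Col1a1 (0.72) and Vcam1 (1.07) among the higher. In Barx1 intestine 0 were higher and 5 lower than in intestine, with Postn, a ligand of alpha V integrins (-2.48), Icam1 (-0.65), Tgfb2 (-0.67) and Thbs2 (-1.60). Against stomach 0 were higher and 8 lower, among them Thbs2 (-2.68) and Col1a2 (-2.46). The list medians were 0.090, -0.22 and -0.16, beside 0.019, 0.022 and -0.00080 over all genes.

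Of 28 adaptor and focal adhesion genes 3 were higher and 3 lower in stomach, beside 8.86% and 8.09% of all genes. Cd151, a tetraspanin that associates with laminin-binding integrins, was lower in stomach than in intestine (-0.56, adjusted p = 0.0107 by limma) and higher in Barx1 intestine than in stomach (0.41, adjusted p = 0.0479 by limma). Cav1, of membrane caveolae, was higher than in intestine in stomach (0.42) and in Barx1 intestine (0.38), and Pxn, a focal adhesion scaffold, was lower in stomach (-0.55). In Barx1 intestine 2 were higher than in intestine and 0 lower, the other being Itgb3bp (0.68), and against stomach Cd151 was the 1 called.

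The next counts stand beside 16.9% of all genes called between stomach and intestine. For Barx1 intestine the shares were 3.98% against intestine and 5.20% against stomach. Of 12 catenin and partner genes 2 were higher and 2 lower in stomach, and in Barx1 intestine 1 was lower than in intestine. That gene, Ctnnal1, an alpha-catenin-like protein, stood at 8.09 and 8.60 in intestine, against 7.06 and 7.24 in stomach, or 6.93 and 7.12 for Barx1 intestine, with differences of -1.20 and -1.32 (adjusted p = 0.0132 and 0.0273 by limma). Against stomach 0 of the 12 passed by limma. Of 12 cadherin regulators the basic helix-loop-helix genes Twist1 and Twist2, known as regulators of cadherin switching, were higher than in intestine in stomach (0.68 and 0.57) and in Barx1 intestine (1.06 and 0.71), and Snai2 was lower in stomach (-0.30). Of 16 other cadherin superfamily genes 1 was higher and 1 lower in stomach, namely Clstn1 (0.45) and Pcdh1 (-0.43), and Pcdh1 was also lower in Barx1 intestine (-0.46), where 0 were higher. Pcdh1 lay below the quartile on all arrays. Against stomach, Pcdh18 was higher (0.43) and Clstn1 lower (-0.58) in Barx1 intestine.

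**Figure D5:**
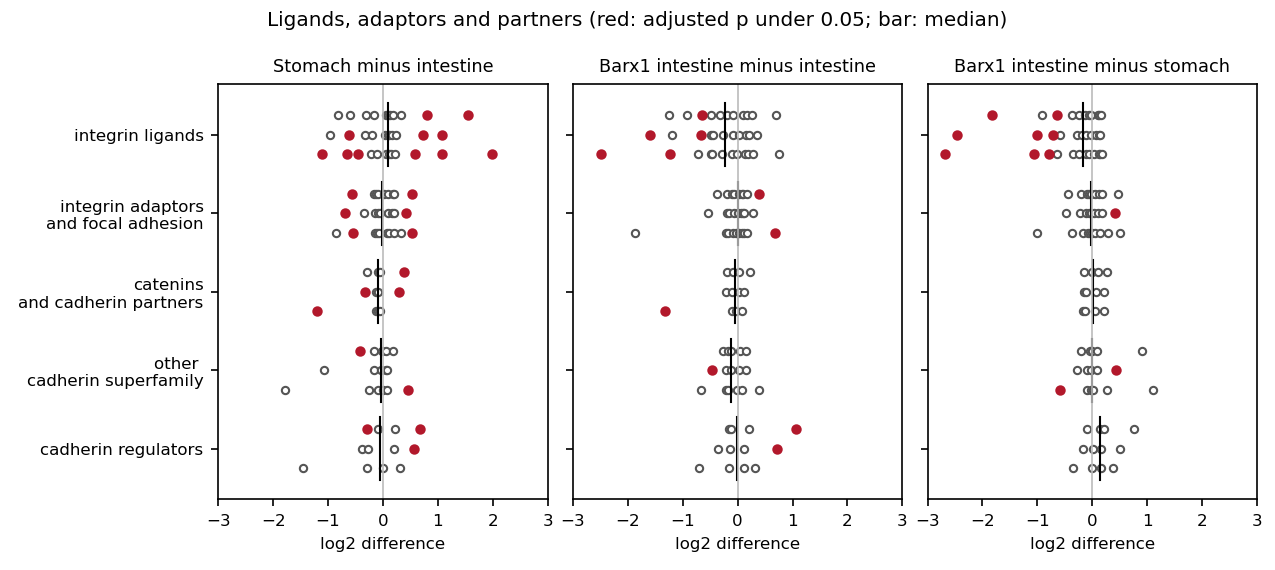
Log2 difference (horizontal axis) of single genes in 5 lists of integrin ligands, adaptors, cadherin partners, other cadherins and regulators (vertical axis) in the 3 comparisons; red points passed at an adjusted p under 0.05 and bars mark list medians. The called ligand genes lie on both sides of 0 for stomach minus intestine (7 higher, 4 lower) and below 0 in the other comparisons (5 and 8 lower). Of all genes 16.9%, 3.98% and 5.20% were called in the 3 comparisons.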

How the data were processed

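The authors deposited log2 expression values for 22690 probe sets, made with RMA per the submitters' processing notes; the sources used here give neither its version nor a genome build. RMA brings the arrays to 1 distribution, so a change shared by most genes would be removed. The log2 scale was inferred from the range of values, and array number, not depth, limits precision. Gene names came from the platform annotation: 20380 probe sets had a single gene, 691 had several, 1606 had none, and 20351 matched the reference gene table by gene ID (GRCm38.p6). The brightest probe set stood for each of 12393 genes. One fit of 3 group means over all 6 arrays used limma 3.58.1 in R 4.3.3 (3 residual and 2.58 prior degrees of freedom), with Benjamini-Hochberg adjustment over all genes in each comparison; the fit was tested on simulated data. SE is that of the moderated fit.

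Every member may be named; array values are given for called members and for Itgb1, Itgav, Itga5, Cdh2 and others described, and up to 4 called genes per related list. The members and lists were chosen with earlier results of these data known.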

Additional observations from a re-analysis of the deposited data

How the results depend on the processing

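The alternative runs left out each array, used replicate blocks or fitted 2 groups alone. Others used a trend in the variance, averaged the probe sets, repeated the quantile normalisation, centred on medians or removed dim genes. Most of the 15 calls lost their threshold in at least 1 of the 6 fits without 1 array, and some in all 6. Their sign was kept throughout, but this was largely fixed in advance. Blocks, 2-group fits, the trend and the dim filter leave the difference itself unchanged. Leaving out 1 array cannot turn a sign where the compared arrays do not overlap, as for each of these calls. No fit without 1 array called more members than the fit of all 6 arrays. Most of these fits also called a smaller share of all genes. For Barx1 intestine against intestine the fit of 2 groups called 0 members by limma, beside 0.403% of all genes. In that fit 13 members had an unadjusted p under 0.05 (38.2%, beside 19.3% of all genes). It is the same fit as those without 1 stomach array, so it adds no further result. The variance trend called 7 members between Barx1 intestine and stomach, beside 9.59% of all genes. At an adjusted p under 0.10 there were 10 calls between stomach and intestine. Barx1 intestine had 9 against intestine and 6 against stomach. The share of all genes at that threshold was not counted, so these counts have no background beside them. The labels do not say whether arrays of the same replicate number were paired. Correlations of same-numbered deviations were -0.22, -0.06 and 0.20, and with 2 arrays per group they cannot settle this. With the replicate block 4, 2 and 0 members were called in the 3 comparisons by limma, beside 12.2%, 2.15% and 2.72% of all genes. In the last, 9 members had an unadjusted p under 0.05 (26.5%, beside 22.5% of all genes). Crossing the stomach numbers, a setting added after seeing the data, gave 6, 4 and 1 calls. Beside these, 15.2%, 4.60% and 3.09% of all genes were called.

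Some uncalled values near 0 changed sign, and the cause was not tested. Between stomach and intestine Itga6 gave 0.022 with median centring and 0.044 with the mean of all probe sets, and Itga5 0.034 with median centring and 0.010 with quantile normalisation; Itga5 gave 0.0093 against stomach with the mean of all probe sets. Without 1 array, Itga3 ran from -0.051 to 0.076, Itga6 from -0.077 to 0.034, Itgb1 from -0.017 to 0.088 and Itga5 from -0.076 to 0.058 between stomach and intestine. Between Barx1 intestine and intestine Cdh3 ran from -0.036 to 0.052, Itgb5 from -0.33 to 0.23 and Itga5 from -0.16 to 0.00010. Between Barx1 intestine and stomach Cdh6 ran from -0.35 to 0.076, Itgav from -0.047 to 0.018 and Itga5 from -0.15 to 0.0089. Members near the lower quartile may lack signal over background.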
